A study of Mus musculus with 6 samples.

Results

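The Notch pathway and the Hes genes it acts on were followed in the mouse hippocampus through 10 of the 54838 genes in the count table. These were the receptors Notch1, Notch2 and Notch3, the ligands Dll1 and Jag1, the DNA-binding factor Rbpj, and the target genes Hes1, Hes5, Hey1 and Hey2. They were taken by gene symbol and not by a cut on their values, but Hes5 is a gene that the study itself had picked out from these libraries, so its result below is not independent evidence. All 10 passed the filter on low counts, which left 19087 genes for testing. PolyA RNA was prepared from 6 hippocampi of females aged 7 months, 3 wild-type and 3 Tg(ORAI1)Ibd, with 1 library per mouse. The Tg(ORAI1)Ibd line was made in FVB/NJ with human ORAI1 cDNA, which encodes the pore of the store-operated calcium channel, in the Thy1.2 cassette. This cassette drives expression in neurons. The libraries hold whole tissue, so that neurons, glia and vessels all contribute, and a difference in the number of cells of a type and a difference in RNA per cell cannot be told apart. The transgenic mice were a single line, and the labels give no more on the wild-type mice than their genotype.

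Notch receptors sit in the plasma membrane and are activated by ligands of the Delta and Jagged families on a neighbouring cell. Binding exposes the receptor to cleavage, first by an ADAM protease and then by gamma-secretase, and the freed intracellular domain enters the nucleus, where it joins RBPJ and Mastermind to switch on genes such as Hes1, Hes5, Hey1 and Hey2. These encode basic helix-loop-helix repressors of transcription. In the brain the pathway is known for keeping neural stem cells undifferentiated, and it also acts in astrocytes and in the vessel wall.

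The promoters of Hes5 and Hey2 are shown because both carry the sequence that RBPJ binds, and because Hes5 passed the test between genotypes while Hey2 did not. RefSeq start sites on GRCm38.p6 were found for 8 of the 10 genes, in windows of 300 bases, and Hes1 and Hey1 were not among them. The stretches below run 5′ to 3′ on the strand of the gene, from 250 bases before the start site to 6 bases after it. They lie at chr4:154960673-154960928 on the plus strand for Hes5 and at chr10:30842778-30843033 on the minus strand for Hey2. Capitals mark the RBPJ core TGGGAA, or TTCCCA where it is read on the other strand.
Hes5: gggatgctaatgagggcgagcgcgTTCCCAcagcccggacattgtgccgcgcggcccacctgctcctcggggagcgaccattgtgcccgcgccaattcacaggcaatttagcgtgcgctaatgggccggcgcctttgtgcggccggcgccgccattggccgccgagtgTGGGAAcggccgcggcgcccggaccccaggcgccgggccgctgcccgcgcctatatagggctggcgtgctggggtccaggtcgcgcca
Hey2: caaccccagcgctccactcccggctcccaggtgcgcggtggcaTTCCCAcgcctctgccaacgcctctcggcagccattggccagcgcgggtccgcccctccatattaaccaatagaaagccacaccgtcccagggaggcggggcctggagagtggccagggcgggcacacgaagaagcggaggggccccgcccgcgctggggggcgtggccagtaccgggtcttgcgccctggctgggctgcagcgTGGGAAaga

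Each of these promoters held 2 matches to the core, 1 on either strand, and in both promoters all matches were preceded by the G that completes GTGGGAA. The core begins 226 and 82 bases before the start site in Hes5 and 207 and 3 bases before it in Hey2, counted on the gene's strand. Among all 32851 RefSeq promoters of 300 bases, 25.6% held TGGGAA on either strand, 6.38% held GTGGGAA, and 33 promoters, or 0.10%, held GTGGGAA on both strands. The Rbpj windows held the core without the flanking G, and the windows of Notch1, Notch2, Notch3, Dll1 and Jag1 held no core. The N-box CACNAG, a sequence that Hes proteins bind, was found with its complement in 42.5% of all promoters, in Notch1, Notch2, Notch3 and Dll1, and not in Hes5 or Hey2. These matches describe the letters only, and no binding was measured here.

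The wild-type libraries held between 37710188 and 52497799 counts and the transgenic libraries between 37414241 and 47027279. Orai1, counted on the mouse gene, had raw counts of 302 to 376 in the wild-type and 11834 to 14620 in the transgenic libraries, so every library matched its label. In the fit across all genes, with edgeR's quasi-likelihood test and Benjamini-Hochberg adjustment, 1355 genes differed at an adjusted p under 0.05, which is 7.10% of those tested, with 591 (3.10%) higher and 764 (4.00%) lower in the transgenic mice. The count was 77 without wild-type mouse 1, 94 without wild-type mouse 2, 192 without transgenic mouse 2, 108 without transgenic mouse 3 and 412 with GC offsets, so the shares used below hold for the fit of all 6 libraries alone. The median log2 fold change of all genes was -0.010. Prox1, a marker of dentate granule neurons, had 93.3 to 97.7 CPM in wild-type libraries and 84.3 to 109 CPM in transgenic ones. Of the 6 neuron markers, which summed to 5026 to 5297 CPM and 5191 to 5359 CPM, 1 rose, Slc17a7 (log2 fold change 0.26; edgeR's adjusted p 0.0356), and Gad1 was at -0.28 with an unadjusted p of 0.0223 and an adjusted p of 0.116. CPM are counts scaled to a common library size. The 12 choroid plexus markers were all lower in the transgenic libraries, with a summed level of 419.6 to 566 CPM in the wild-type and 72.3 to 96.4 CPM in the transgenic mice, and their part in the results below was not tested. The deviation of a gene from its mean over the libraries followed the GC content of its transcript, with a Spearman's rho of -0.385 to -0.324 in wild-type libraries and 0.202 to 0.501 in transgenic ones, over 14235 genes.

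Among the 10 genes, Hes5 and Hes1 rose in the transgenic hippocampi and none of the other 8 passed the test, even at an unadjusted p under 0.05 by edgeR. Both are classical targets of Notch. The transgenic mean was 1.81-fold the wild-type mean for Hes5 and 1.40-fold for Hes1. The count of 2 of 10 higher and 0 of 10 lower stands beside 3.10% and 4.00% of all genes. Hes5 had been picked out by the study from these same libraries, so this count is not independent evidence. An unadjusted p under 0.05 by edgeR was reached by 5306 of all 19087 genes. The median log2 fold change of the 10 genes was 0.0086. Receptors, ligands and Rbpj had log2 fold changes between -0.22 and 0.20. The groups did not overlap in 3 of the 10 genes, with Hes5 and Hes1 above and Notch2 below, and did not overlap in 34.9% of all genes tested (16.9% above and 17.9% below).

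**Figure D1:**
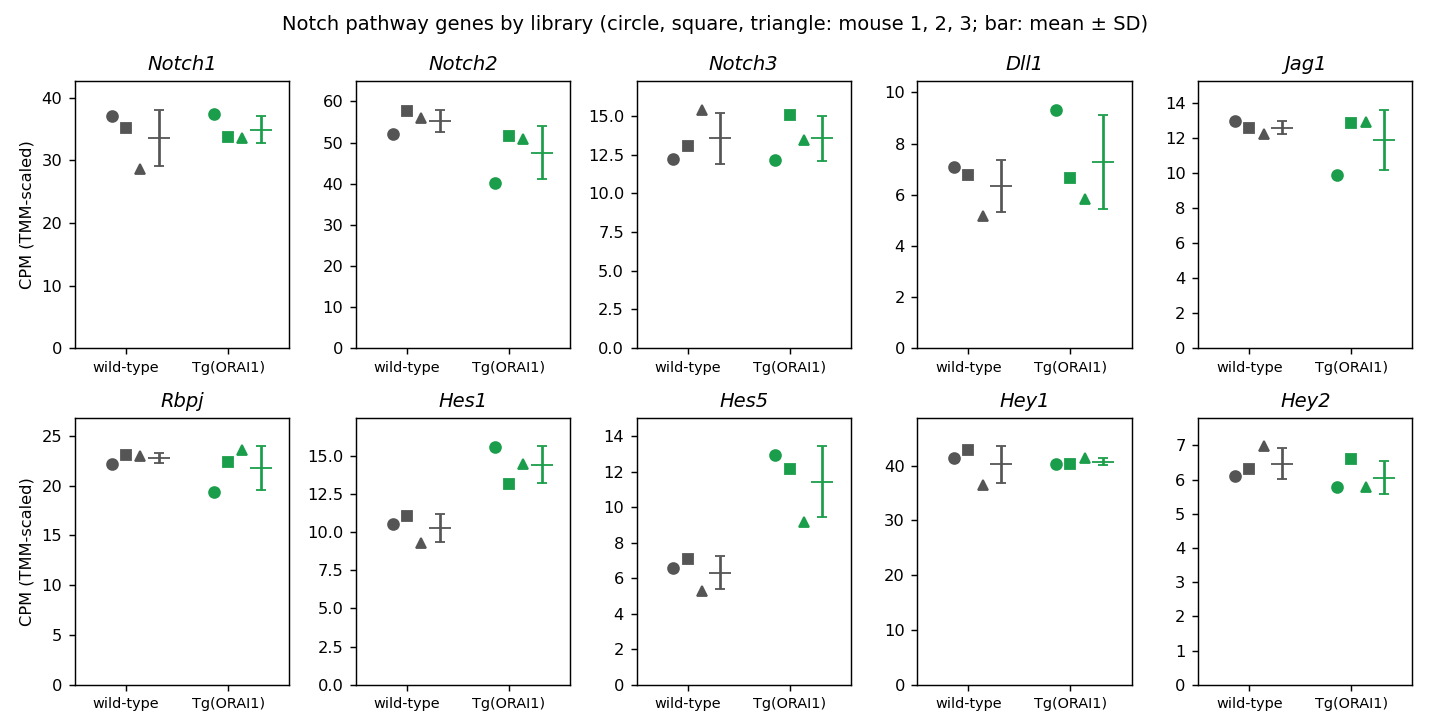
Level of each of the 10 genes in scaled counts (CPM, axes from 0) in the 3 wild-type (grey) and 3 Tg(ORAI1)Ibd (green) libraries, each point a mouse and each bar the mean with its SD. All transgenic points lie above all wild-type points for Hes5 and Hes1 and below them for Notch2, while the groups overlap in the other 7 genes.

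Hes5 (ENSMUSG00000048001, chromosome 4 of GRCm38 from 154960923 to 154962371, plus strand) encodes a repressor that keeps neural progenitors from differentiating. Raw counts of Hes5 were 344, 299 and 200 among wild-type libraries and 604, 465 and 343 among transgenic ones. Scaled to the libraries, the levels were 6.57, 7.09 and 5.28 CPM against 12.9, 12.2 and 9.16 CPM. The lowest transgenic library, the third, was above the highest wild-type library, the second. The means were 6.31 ± 0.928 CPM in the wild-type and 11.4 ± 2.0 CPM in the transgenic mice (SD, n = 3 each). The log2 fold change was 0.86 (standard error 0.16, 95% interval 0.48 to 1.23), and edgeR's adjusted p was 0.0299. Permuting the CPM between genotypes (exact, two-sided) gave p = 0.1, which is the smallest value that 3 against 3 mice allow. A gene on the other strand, Gm20421, overlaps Hes5 and had 81 counts in the 6 libraries together, and the counting was strand-specific.

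The transcript of Hes5 is 62.1% GC, which is higher than in 98.1% of the genes tested. When the GC trend of each library was removed, the log2 fold change of Hes5 was 0.72 and edgeR's adjusted p was 0.0564, so the call was lost while the direction stayed. It was also lost without wild-type mouse 1 (edgeR's adjusted p 0.126), wild-type mouse 2 (0.0988), wild-type mouse 3 (0.050, above the threshold before rounding) and transgenic mouse 2 (0.0799), with log2 fold changes of 0.90, 0.96, 0.75 and 0.84 in that order. Without transgenic mouse 1, the highest library, it was 0.75 (edgeR's adjusted p 0.0471).

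Hes1 (ENSMUSG00000022528, chromosome 16 from 30064384 to 30067796, plus strand) encodes the related repressor that is best known for its oscillating expression in progenitors. The wild-type libraries had 10.5, 11.04 and 9.27 CPM, from raw counts of 552, 466 and 351. The transgenic libraries had 15.6, 13.2 and 14.5 CPM, from raw counts of 727, 502 and 542. The groups did not overlap, and the means were 10.3 ± 0.913 and 14.4 ± 1.22 CPM (SD, n = 3 each). The log2 fold change was 0.49 (standard error 0.097, 95% interval 0.26 to 0.71), and edgeR's adjusted p was 0.0343. The transcript of Hes1 is 50.7% GC, near the middle of the genes tested. With GC offsets the log2 fold change of Hes1 was 0.48 and edgeR's adjusted p was 0.0564, and with offsets for gene length it was 0.44 with an adjusted p of 0.0630. None of the 6 fits that left out a mouse called Hes1, with edgeR's adjusted p between 0.0541 and 0.130 and log2 fold changes between 0.42 and 0.57.

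**Figure D2:**
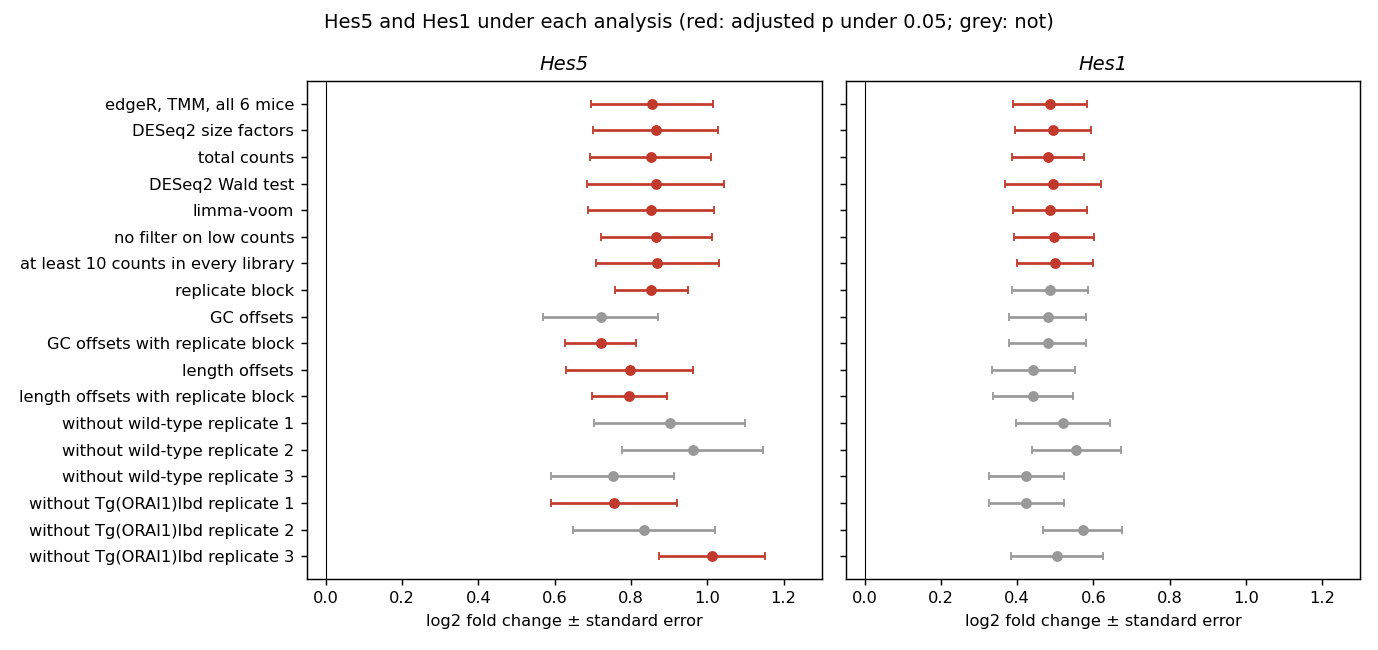
Log2 fold change (transgenic minus wild-type, bar: standard error) of Hes5 and Hes1 in the analysis as reported (top) and under each of 17 alternatives, in red where the adjusted p was under 0.05 and in grey where it was not. All estimates are above 0, with Hes5 at 0.72 to 1.01 and Hes1 at 0.42 to 0.57, and the call was lost in 5 of the alternatives for Hes5 and in 11 for Hes1.

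The Hey genes did not pass the test. Hey1 (ENSMUSG00000040289, chromosome 3 from 8663359 to 8667256, minus strand) encodes a repressor that acts in vessels and in neural precursors. It had 41.4, 42.8 and 36.5 CPM in the wild-type and 40.3, 40.4 and 41.4 CPM in the transgenic libraries, and all transgenic values fell inside the wild-type range. Its log2 fold change was 0.016 (standard error 0.066, 95% interval -0.14 to 0.17; edgeR's adjusted p 0.904), and the sign turned with GC offsets (-0.019). Hey2 (ENSMUSG00000019789, chromosome 10 from 30832359 to 30842801, minus strand), a repressor known from arteries and the heart, had 6.11, 6.30 and 6.97 CPM against 5.79, 6.60 and 5.80 CPM. These groups overlapped, with a log2 fold change of -0.092 (standard error 0.11, 95% interval -0.34 to 0.15; edgeR's adjusted p 0.621). With GC offsets it was -0.011, and without a mouse -0.13 to -0.029. The upper end of either interval lies below the lower end of the interval of Hes1. Whether the RBPJ core matches printed above bear on the levels of Hes5 or Hey2 was not tested.

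None of the 3 receptors passed the test, by edgeR or by limma-voom and DESeq2's Wald test. Notch2 (ENSMUSG00000027878, chromosome 3 from 98013527 to 98150361, plus strand), a receptor of neural stem cells and glia, had 52.2, 57.6 and 55.9 CPM in the wild-type and 40.2, 51.7 and 50.9 CPM in the transgenic libraries. All transgenic values were below all wild-type values. The log2 fold change was -0.22 (standard error 0.098, 95% interval -0.44 to 0.012), and neither the unadjusted p of 0.0606 nor edgeR's adjusted p of 0.201 passed. Transgenic mouse 1 had the lowest value, and without it the log2 fold change of Notch2 was -0.11. With offsets for gene length it was -0.10, and with GC offsets -0.26 (unadjusted p 0.0259, edgeR's adjusted p 0.171). DESeq2's Wald test gave Notch2 an unadjusted p of 0.0460 and an adjusted p of 0.173. A gene on the same strand, Gm42820, overlaps Notch2 and had 31 counts in all 6 libraries.

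Notch1 (ENSMUSG00000026923, chromosome 2 from 26457903 to 26516663, minus strand), the receptor most studied in neural progenitors, had 37.1, 35.2 and 28.6 CPM in the wild-type and 37.4, 33.7 and 33.6 CPM in the transgenic libraries. Wild-type mouse 3 was low, and the groups overlapped. Its log2 fold change was 0.052 (standard error 0.10, 95% interval -0.18 to 0.29; edgeR's adjusted p 0.778). It was -0.034 with GC offsets and 0.20 with length offsets (edgeR's adjusted p 0.231). Notch3 (ENSMUSG00000038146, chromosome 17 from 32120820 to 32166880, minus strand), the receptor of vascular smooth muscle and pericytes, had 12.2, 13.1 and 15.4 CPM against 12.2, 15.1 and 13.4 CPM. The ranges were nearly the same, with a log2 fold change of 0.0012 (standard error 0.11, 95% interval -0.27 to 0.27; edgeR's adjusted p 0.996).

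Neither ligand passed the test. Dll1 (ENSMUSG00000014773, chromosome 17 from 15367354 to 15376872, minus strand), the Delta ligand of differentiating progenitors, had 7.09, 6.78 and 5.18 CPM in the wild-type and 9.33, 6.66 and 5.82 CPM in the transgenic libraries. A single transgenic library, mouse 1, was above the wild-type range. The log2 fold change of Dll1 was 0.20 (standard error 0.20, 95% interval -0.26 to 0.66; edgeR's adjusted p 0.565), and without that mouse it was -0.029. Jag1 (ENSMUSG00000027276, chromosome 2 from 137081456 to 137116644, minus strand), a Jagged ligand of stem cell niches and vessels, had 12.95, 12.6 and 12.2 CPM against 9.88, 12.9 and 12.9 CPM. Here transgenic mouse 1 was the low one and the other two lay inside the wild-type range. The log2 fold change of Jag1 was -0.084 (standard error 0.11, 95% interval -0.34 to 0.18; edgeR's adjusted p 0.671).

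Rbpj (ENSMUSG00000039191, chromosome 5 from 53466152 to 53657362, plus strand) encodes the protein that brings the Notch intracellular domain to DNA and represses the same genes in its absence. It had 22.2, 23.1 and 23.0 CPM in the wild-type and 19.3, 22.4 and 23.6 CPM in the transgenic libraries, and the groups overlapped. Its log2 fold change was -0.066 (standard error 0.080, 95% interval -0.25 to 0.12; edgeR's adjusted p 0.641), and 0.043 with GC offsets. The processed copy Rbpj-ps3 had counts equal to 12% to 17.3% of those of Rbpj, so reads may be split between them and the level of Rbpj is uncertain to that extent.

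Per base of gene length, Hey1 was the highest of the 10 genes. In the wild-type libraries its level was 12.3 ± 0.987 FPKM (counts per library size and gene length; SD, n = 3), above Notch2 with 5.13 ± 0.270, Hes1 with 5.05 ± 0.439 and Hes5 with 4.63 ± 0.673 FPKM. Neighbours in this run from Notch2 to Hes5 overlapped and so did not differ beyond their spread. A step followed to Notch1 with 2.36 ± 0.309 and Jag1 with 2.16 ± 0.0569 FPKM, and another from Jag1 to Rbpj with 1.79 ± 0.0433 FPKM. Rbpj, Notch3 with 1.69 ± 0.212, Dll1 with 1.51 ± 0.239 and Hey2 with 1.41 ± 0.103 FPKM each overlapped with the next. In the transgenic libraries Hey1 stood at 12.4 ± 0.232 FPKM and was again the highest. Hes5 with 8.37 ± 1.44 FPKM and Hes1 with 7.06 ± 0.562 FPKM came next and overlapped. Both lay above Notch2 with 4.41 ± 0.617 FPKM in every library. Which transcripts of a gene were expressed was not examined, so the order between genes rests on the deposited gene lengths.

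**Figure D3:**
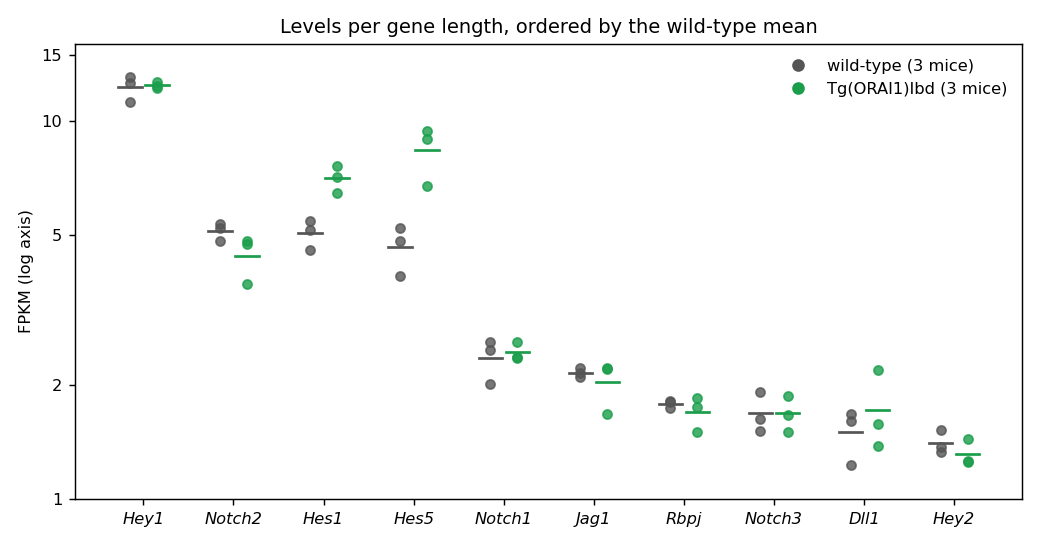
Level per gene length in FPKM (log axis) of the 10 genes in each wild-type (grey) and Tg(ORAI1)Ibd (green) library, ordered by the wild-type mean, with a line at each mean of 3 mice. Hey1 is highest in both genotypes, and Hes5 and Hes1, which overlap Notch2 in the wild-type, lie above it in the transgenic mice.

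Within the Hes and Hey family, the share of the summed FPKM that Hes5 held was 14.9% ± 1.40 in the wild-type and 22.5% ± 3.14 in the transgenic libraries (SD, n = 3 each). For Hes1 it was 16.3% ± 0.548 and 19.1% ± 1.59, and for Hey1 39.8% ± 1.09 and 33.6% ± 1.86. The shares of these 3 genes did not overlap between genotypes. Nor did those of Hey2 and Heyl, which were lower in the transgenic libraries. The summed FPKM of the family was 29.1 to 32.4 in wild-type libraries and 35.5 to 38.0 in transgenic ones. A share must fall when another rises, so the lower shares of Hey1, Hey2 and Heyl do not show lower levels. The CPM of each of them overlapped between genotypes.

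Ratios within a library do not depend on how the libraries were scaled, but they still carry its GC trend. The transcript of Hes5 is 62.1% GC, beside 52.6% for Hey1 and 57.1% for Notch1. The part of this trend in the ratios was not tested. The log2 ratio of Hes5 to Hey1 was -1.42 ± 0.099 in the wild-type and -0.59 ± 0.29 in the transgenic mice, a difference of 0.83, and the groups did not overlap. That of Hes1 to Hey1 went from -1.29 ± 0.012 to -0.82 ± 0.13, a difference of 0.47, again without overlap. The wild-type libraries were close together in this ratio, at -1.29, -1.27 and -1.30. Hes5 to Notch1 differed by 0.79 without overlap, whereas Hes5 to Hes1 differed by 0.37 with overlap, because transgenic mouse 3 had a ratio of -0.080 beside -0.061 in wild-type mouse 2. The ratios of Notch1 to Notch2 (0.28), Notch3 to Notch2 (0.23) and Dll1 to Jag1 (0.27) also overlapped between genotypes. The difference for Notch1 to Notch2 was 0.12 without transgenic mouse 1 and 0.16 without wild-type mouse 3. That for Dll1 to Jag1 was -0.050 without transgenic mouse 1. Over these 7 ratios the exact two-sided permutation p was 0.1, the smallest possible, for the 3 ratios without overlap and 0.2 to 0.6 for the others, and the smallest Benjamini-Hochberg adjusted value was 0.233.

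**Figure D4:**
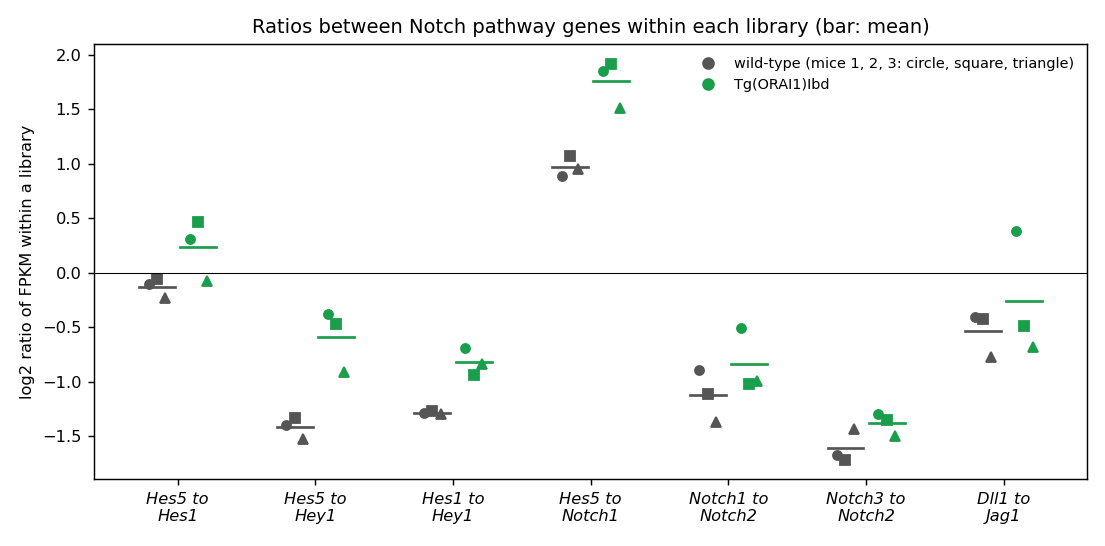
Log2 ratio of FPKM between pairs of Notch pathway genes within each library, with the 3 wild-type mice in grey, the 3 Tg(ORAI1)Ibd mice in green and a line at each mean. The groups are apart for Hes5 to Hey1, Hes1 to Hey1 and Hes5 to Notch1 and overlap for the other 4 ratios.

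Beyond these 10 genes, 59 further genes of the pathway were listed by role, and 56 of them were tested. In the transgenic mice 5 rose and 2 fell, and 49 did not pass, beside 7.10% of all genes called. Their median log2 fold change was 0.050. With GC offsets none of the 66 tested pathway genes, Hes5 and Hes1 included, passed edgeR's test. An unadjusted p under 0.05 was then reached by 20 of the 66, beside 4070 of all 19087 genes. Without wild-type mouse 1, wild-type mouse 2 or transgenic mouse 2 the count of calls was also 0. Without transgenic mouse 3 it was 1, which was Hes5. Dll4 (ENSMUSG00000027314), a Delta ligand of sprouting endothelium, was the only ligand that rose, with 2.43, 1.97 and 2.46 CPM in the wild-type and 3.22, 3.93 and 3.63 CPM in the transgenic libraries. The groups did not overlap, and raw counts were 83 to 127 and 136 to 150. The log2 fold change of Dll4 was 0.65 (standard error 0.15; edgeR's adjusted p 0.0450), and the call was lost with GC offsets (0.58, adjusted p 0.0869) and in 5 of the 6 fits that left out a mouse, where the adjusted p reached 0.143. It was kept without transgenic mouse 1 (0.73, adjusted p 0.0464). Cldn5, a tight junction gene of endothelium, was the 1 of 8 endothelial markers that rose, with a log2 fold change of 0.66 (edgeR's adjusted p 0.0430), and the endothelial markers summed to 209 to 229 CPM in wild-type libraries and 197 to 274 CPM in transgenic ones. Their part in the level of Dll4 was not tested.

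The other receptors and ligands did not pass. Notch4, the endothelial receptor, had 5.23 to 6.65 CPM in the wild-type and 4.94 to 6.39 CPM in the transgenic libraries. Jag2 had 47.3 to 52.0 and 48.2 to 53.8 CPM, and Dner, a neuronal Notch ligand, had 137 to 154 and 119.9 to 141 CPM. Both pairs of ranges overlapped. Dll3 had 0.872 to 1.40 and 1.36 to 1.74 CPM, from only 33 to 67 raw counts. Dlk1 ranged from 15.05 to 26.9 CPM among the wild-type mice alone, with a log2 fold change of -0.00036 and a standard error of 0.24, and its relative Dlk2 had 19.6 to 23.3 and 22.5 to 27.4 CPM. Of the smaller Hes and Hey genes, Hes6 had 10.2 to 11.7 and 10.7 to 12.4 CPM, Heyl 3.86 to 5.73 and 4.25 to 4.46 CPM, and Hes7 0.872 to 1.07 and 0.734 to 1.33 CPM, all with overlap. Hes2, Hes3 and Helt did not pass the filter on low counts, with at most 7 counts in a library.

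Modifiers of the pathway made up the rest of the calls. Rfng, a Fringe glycosyltransferase that changes which ligand a receptor answers to, rose from 58.6 to 62.8 CPM in the wild-type to 71.6 to 77.3 CPM, with a log2 fold change of 0.30 (standard error 0.051; edgeR's adjusted p 0.0262). Its relative Lfng did not pass, at 14.03 to 17.6 and 10.9 to 13.7 CPM (log2 fold change -0.38; edgeR's adjusted p 0.0895), and it was chosen after its values were seen. Its groups did not overlap, and without transgenic mouse 1 it was called lower. Dtx1, an E3 ligase of the Deltex family, had 63.4 to 69.0 and 79.4 to 84.3 CPM, a log2 fold change of 0.31 and an adjusted p of 0.0214 by edgeR. Numbl, a relative of the Notch antagonist Numb, rose by 0.28 on the log2 scale (edgeR's adjusted p 0.0321). Aes, a short Groucho-family corepressor, rose by 0.24 (edgeR's adjusted p 0.0286). With GC offsets, which left none of them called, the log2 fold change was 0.19 for Rfng, 0.17 for Dtx1, 0.23 for Numbl and 0.15 for Aes.

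The pathway genes that fell were Kdm5a, a histone demethylase found with RBPJ in repressor complexes, and Aph1c, a subunit of gamma-secretase. Kdm5a had 62.3 to 64.1 CPM in the wild-type and 50.7 to 52.8 CPM in the transgenic libraries, with a log2 fold change of -0.28 (standard error 0.043; edgeR's adjusted p 0.0197). Aph1c had 22.1 to 23.4 and 18.6 to 19.2 CPM, with a log2 fold change of -0.27 (standard error 0.054; edgeR's adjusted p 0.0336), but it has a near-identical copy, Aph1b, so the split of reads between them is uncertain. Aph1b was also lower without overlap, though it did not pass (log2 fold change -0.18; edgeR's adjusted p 0.0745). Neither Kdm5a nor Aph1c was called with length offsets, where Kdm5a was at -0.13 and Aph1c at -0.24, or with GC offsets, where they were at -0.16 and -0.17. By edgeR no gene passed among the 4 genes of ligand endocytosis, where Mib2 had the smallest p (log2 fold change 0.16; edgeR's adjusted p 0.0815), or among the 7 nuclear activators, where it was Crebbp (0.087; adjusted p 0.259). DESeq2's Wald test called 1 of the 4, Neurl1b, which is named for this call, and length offsets brought Crebbp to 0.23 (edgeR's adjusted p 0.0427). Mib2 had log2 fold changes of 0.0415 to 0.219 over the 17 alternatives and was called in none. By role, edgeR called 2 of 9 genes of turnover and inhibition and 2 of 12 corepressors. It called 1 of 5 genes of receptor glycosylation and 1 of 10 of receptor cleavage, beside 7.10% of all genes. DESeq2's Wald test called 4 of the 9 genes of turnover and inhibition, beside 2230 of all 19087 genes.

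**Figure D5:**
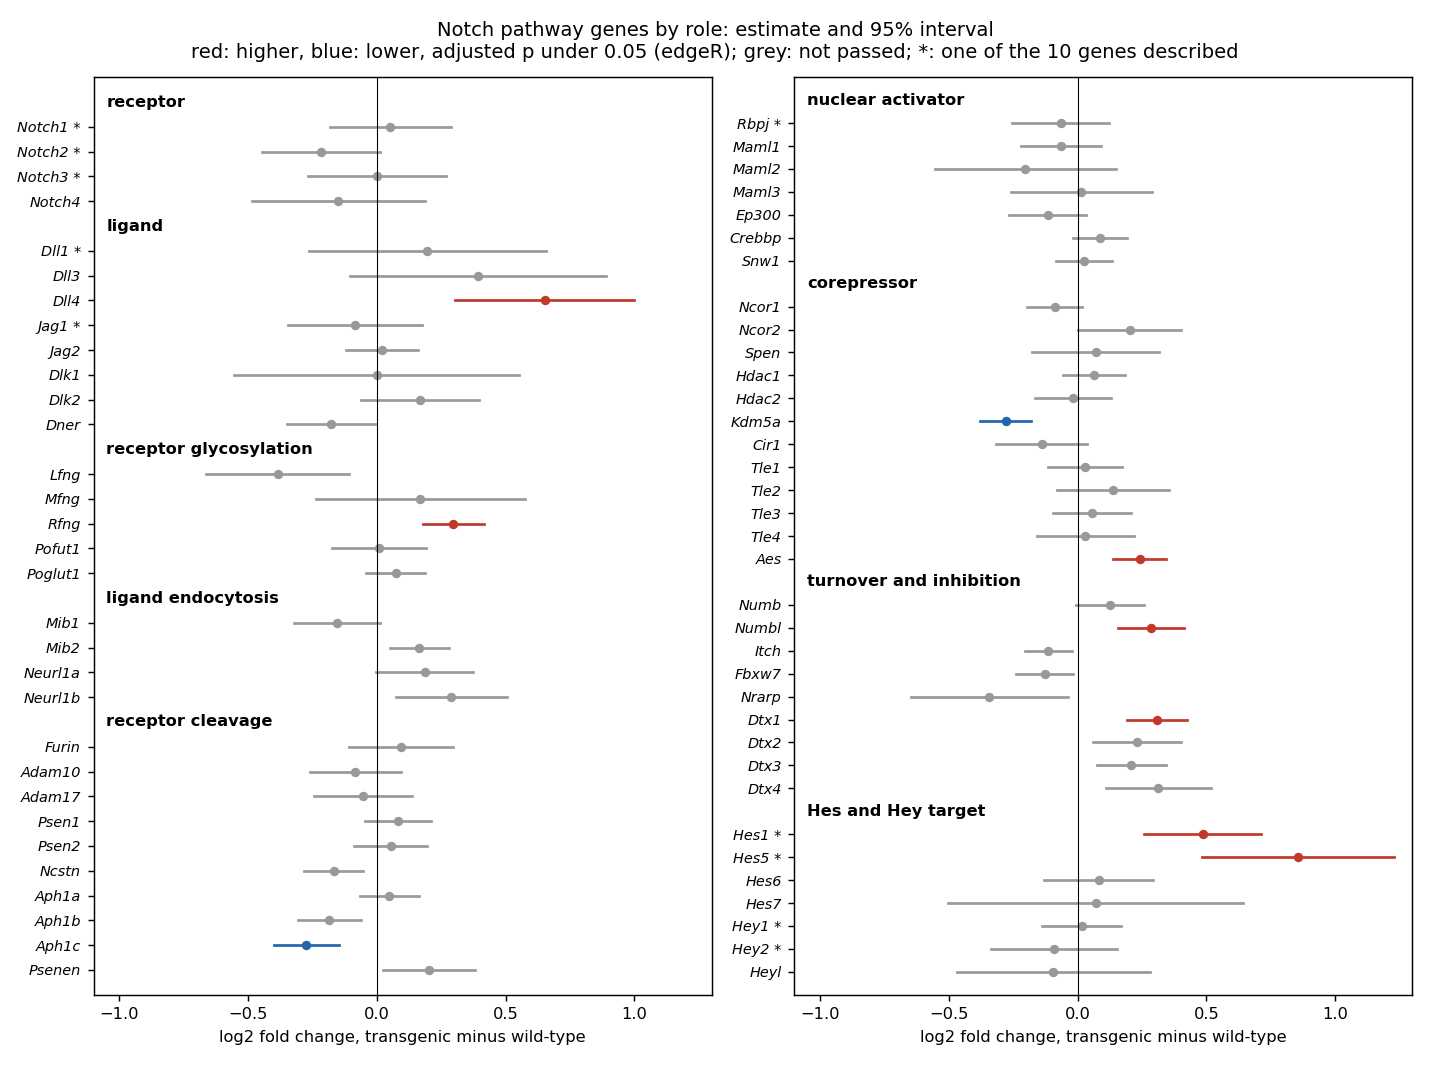
Log2 fold change (transgenic minus wild-type) with its 95% interval for the 66 tested genes of the Notch pathway list, grouped by role, in red where higher and in blue where lower at an adjusted p under 0.05, with an asterisk at each of the 10 genes described first. Hes5, Dll4 and Hes1 have the highest estimates among the genes in red, and most grey intervals cross 0.

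Genes of cells that use the pathway were followed by marker lists. Of 15 tested genes of neural progenitors and proneural factors, 1 rose and 0 fell, beside 3.10% and 4.00% of all genes. It was Neurod2, a factor of neurons that have already left the cell cycle, with 141 to 142 CPM in the wild-type and 170.2 to 190.2 CPM in the transgenic libraries (log2 fold change 0.32; edgeR's adjusted p 0.0239). Sox2 and Nes, which mark neural stem cells, had log2 fold changes of 0.018 and -0.13 and did not pass. Nor did Sox11 (0.77; edgeR's adjusted p 0.138) and Dcx (-0.35; adjusted p 0.143), genes of immature neurons that are named because their unadjusted p was under 0.05. None of 10 astrocyte markers passed, by edgeR, DESeq2 or limma-voom, and 0 had an unadjusted p under 0.05, with a summed level of 4966 to 6288 CPM in the wild-type and 4820 to 5523 CPM in the transgenic libraries, and none of 8 mural cell markers did, of which 2 had an unadjusted p under 0.05, with 260 to 353 and 228 to 392.2 CPM. The astrocyte and mural sums overlapped between genotypes. Of all 19087 genes, 5306 had an unadjusted p under 0.05 by edgeR. All 6 ependymal markers had negative log2 fold changes, with a median of -0.57, and their summed level was 37.2 to 53.8 CPM in wild-type and 26.1 to 34.5 CPM in transgenic libraries, without overlap. None of the 6 passed by edgeR, and 2 had an unadjusted p under 0.05. DESeq2's Wald test called 2 of the 6, beside 2230 of all 19087 genes. The part of any of these cell types in the levels of Hes5 and Hes1 was not tested.

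The genes whose level was most like that of Hes5 over the 6 libraries were Aspdh, Rbm8a, Vps28, Surf2 and Fdps. Pearson's r of the log2 CPM was 0.993 for Aspdh and 0.991 for Fdps, and 679 of 14239 genes compared had an r above 0.9. Hes1 had an r of 0.918 with Hes5. None of the 5 genes passed edgeR's test, with adjusted p between 0.0546 and 0.134. The libraries differ in depth and in their GC trend, and each r is over 6 points, so such values are a description.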

How the data were processed

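RNA of 6 hippocampi was sequenced, and the genotypes were taken from the labels. The authors filtered reads with Trimmomatic, aligned them to mm10 with STAR and counted them on Ensembl 95 genes with featureCounts 1.5.0-p1 (read pairs, strand setting 2, mapping quality of at least 3, primary alignments). The authors deposited raw counts per gene and library, not normalized, with the length of each gene in bp.

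From these counts, genes were kept by edgeR's filterByExpr (minimum count 10) and scaled by TMM. The test was edgeR's quasi-likelihood F-test between genotypes, with p-values over all 19087 genes adjusted after Benjamini and Hochberg and a threshold of 0.05. CPM used the scaled library totals, and FPKM the totals and the deposited lengths. R 4.3.3, edgeR 4.0.16, limma 3.58.1, DESeq2 1.42.0 and Python 3.11.15 were used. For genes with few counts, counting itself limits the precision, and for 3 against 3 mice an exact permutation test cannot go below 0.1. The study's tool, NOISeq, was not run.

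The genes and lists were chosen with earlier results of these data known. Named are Orai1, the 10 genes, the other receptors, ligands and Hes or Hey genes, every listed pathway gene that passed, the gene with the smallest p in each role, Sox2, Nes and progenitor genes that passed, and the 5 genes most like Hes5 (log2 CPM with a prior count of 2, mean above 1). Markers are given as sums and counts. Prox1, Slc17a7, Gad1, Cldn5, Lfng, Aph1b, Neurl1b, Nrarp, Sox11 and Dcx are outside this rule and were named after their values were seen. Some genes covered here are not reported. Symbols came from GRCm38 gene names, transcript GC from GENCODE M21 and promoters from RefSeq.

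Alternatives were other scalings, tests and filters, each mouse left out, the replicate number as a block, and GC or length offsets per library (loess, span 0.5) with and without the block. On simulated data, edgeR's test found 71.0% of 200 genes changed at a log2 fold change of 1 among 19087, and 7.79% of its 154 calls were false. The simulated counts had no GC or length trend, and their fold change was larger than those of Hes5 and Hes1. These rates need not hold for the real libraries. The mice sharing a number are different animals, and the numbers were not taken as pairs.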

Additional observations from a re-analysis of the deposited data

How the results depend on the processing

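The direction of Hes5 and Hes1 stayed under all 17 alternatives. The other scalings and filters, limma-voom and DESeq2's Wald test left both called, and the replicate block, length offsets and GC offsets with the block kept Hes5 alone. Of the 10 genes, 1 was called with the replicate block, with GC offsets and the block, and with length offsets without and with it. With GC offsets alone 0 were called. There 3 of the 10 had an unadjusted p under 0.05 by edgeR, beside 4070 of all 19087 genes. Hes5 was then at 0.72 on the log2 scale. Hes1 was at 0.49 with the block, 0.48 with GC offsets, 0.48 with GC offsets and the block, 0.44 with length offsets and 0.44 with these and the block. Leaving out a mouse gave 0 to 1 calls among the 10, log2 fold changes of 0.75 to 1.01 for Hes5 and 0.42 to 0.57 for Hes1. The cause was not tested, except that a fit without a mouse has fewer libraries.

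The pathway list had 9 calls, and 5 with the replicate block (Rfng, Kdm5a, Numbl, Dtx1 and Hes5). With GC offsets there were 0, and with these and the block 2. These 2 were Hes5, higher, and Nrarp, lower, which was at -0.34 among all 6 libraries without offsets. Length offsets gave 7, all higher, and 4 with the block. Without a mouse the count was 0 to 9: 0 without wild-type mouse 1, wild-type mouse 2 or transgenic mouse 2, and 1 without transgenic mouse 3. Over all genes, 1355 calls became 2230 by DESeq2's Wald test, 738 with the block, 412 with GC offsets, 485 with these and the block, 771 with length offsets, 596 with these and the block, and 77 to 1149 without a mouse.

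Log2 fold changes near 0 turned sign. With GC offsets, without and with the block, they were -0.019 and -0.016 for Hey1, -0.034 and -0.027 for Notch1, -0.11 and -0.11 for Notch3, 0.043 and 0.041 for Rbpj, -0.045 and -0.047 for Hes6, -0.038 and -0.055 for Hes7 and -0.11 and -0.11 for Jag2. With length offsets, without and with the block, Rbpj was at 0.068 and 0.065 and Dlk1 at 0.042 and 0.064. Scaling to total counts put Notch3 at -0.0025. Dlk1 was at 0.0076 with DESeq2's size factors, 0.010 by its Wald test, 0.0044 by limma-voom, 0.0098 without a filter, 0.012 with at least 10 counts in every library and 0.022 with the block. Leaving out a mouse gave -0.043 to 0.079 for Hey1, -0.046 to 0.15 for Notch1, -0.058 to 0.11 for Notch3, -0.029 to 0.36 for Dll1, -0.13 to 0.035 for Jag1, -0.11 to 0.014 for Rbpj, -0.14 to 0.32 for Dlk1, -0.19 to 0.28 for Hes7, -0.20 to 0.11 for Heyl, -0.026 to 0.079 for Jag2 and -0.050 to 0.48 for the log2 difference in the ratio of Dll1 to Jag1.

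For the pairing, mice with the same number had deviations from their genotype's mean that correlated at 0.399, -0.357 and 0.388 over 11191 genes, those of other pairs at -0.588 to 0.536, and 2 of 6 libraries correlated best with their own number. Low counts limit Dll3, Hes7, Hes2, Hes3 and Helt most.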

Other observations

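Transgenic mouse 1 had the highest CPM of the 6 libraries for 4 of the 10 genes (Hes5, Hes1, Notch1 and Dll1) and the lowest for 5 (Hey2, Notch2, Notch3, Jag1 and Rbpj). Wild-type mouse 3 had the lowest CPM for 5 (Hes5, Hes1, Hey1, Notch1 and Dll1) and the highest for Hey2 and Notch3. The GC trend was steepest in transgenic mouse 1, with a Spearman's rho of 0.501, against 0.207 and 0.202 in the other transgenic mice. The transcripts of Notch3 and Notch1 are 59.6% and 57.1% GC, those of Hey2 and Rbpj 45.9% and 43.7%.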
